A study of Homo sapiens with 18 samples.

Results

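Nuclear genes of respiratory complex I and of its assembly factors were followed in DU145 prostate carcinoma cells treated with GC7, an inhibitor of deoxyhypusine synthase. They were chosen by name, from the genes of the fraction table whose symbol begins with NDUF, without 1 pseudogene name, and 50 of 15747 genes are described. Of these, 38 carry subunit names (15 NDUFA, 11 NDUFB, 7 NDUFS, 3 NDUFV and 2 NDUFC), 8 are the assembly factors NDUFAF1 to NDUFAF8, and 4 are transcripts beside or across a member (NDUFA6-DT, NDUFB2-AS1, NDUFV2-AS1 and NDUFC2-KCTD14). The counts that follow cover the 46 subunits and assembly factors, and all 50 names also had a value in the whole-cell table of 44682 genes. The name NDUFA4 and that of its paralog NDUFA4L2 are historical, since NDUFA4 is now placed with complex IV, which leaves 36 names of true complex I subunits.

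Complex I takes electrons from NADH, passes them along iron-sulfur clusters to ubiquinone and pumps protons across the inner mitochondrial membrane. It has a matrix arm, made of the NADH-oxidising N module and the ubiquinone-binding Q module, and a membrane arm, made of a proximal and a distal pump module around hydrophobic subunits encoded in mitochondrial DNA. Core subunits carry the cofactors and the pumps, accessory subunits surround and stabilise them, and assembly factors help build the modules without staying in the finished enzyme. GC7 blocks the hypusine modification of eIF5A, a factor that helps ribosomes through difficult stretches of peptide bond formation, such as runs of proline.

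DU145 is an established cell line from a metastatic prostate carcinoma. Cells received 40 µM GC7 or vehicle for 24 h, and RNA was sequenced from whole cells, from the cytoplasm and from heavy polysomes, the gradient fractions in which an mRNA carries many ribosomes, which gave 6 groups of 3 libraries. According to the labels' protocols, both cytoplasmic and polysomal RNA came from lysates of emetine-treated cells cleared of nuclei and mitochondria. The labels number the libraries but do not tie them to separate cultures, so the errors may be technical. The study asked how loss of hypusination changes mRNA abundance and ribosome loading. Both tables used here hold comparisons between groups and no values of single libraries, so library depth is unknown and the only errors are the standard errors (SE) in the authors' deposited table. Epithelial keratins marked the cells as labelled (mean normalized count of KRT18 41006 in the cytoplasm), whereas KLK2, KLK3, TMPRSS2 and the leukocyte and endothelial markers PTPRC, CD3E and PECAM1 and the erythroid gene HBB have no row in the fraction table and the fibroblast gene COL1A1 was at 62.5.

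The mRNAs of most subunits were at higher levels than those of most assembly factors. As mean normalized counts per kilobase of transcript over all libraries of a fraction, subunits had a median level of 4720 in the cytoplasm and 5350 in polysomes, and assembly factors 291 and 440. The median over all protein-coding genes of the table was 152 in the cytoplasm and 224 in polysomes. Levels per kilobase were highest in the cytoplasm for NDUFB1, a small single-span subunit of the distal arm, at 26787, and in polysomes for NDUFA11, a proximal-arm subunit, at 21556. NDUFAF8, NDUFAF3 and NDUFAF2 stood apart from the other factors, with cytoplasmic levels of 7438, 6285 and 3423, in the range of the subunits. The lowest subunit names were NDUFA4L2 at 112 and NDUFS1 at 140, and the level of NDUFS1 rests on an annotated transcript of 11660 bases. Subunits together made up 0.538% of the summed mean counts in the cytoplasm and 0.566% in polysomes, and assembly factors 0.0497% and 0.0434%.

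**Figure D1:**
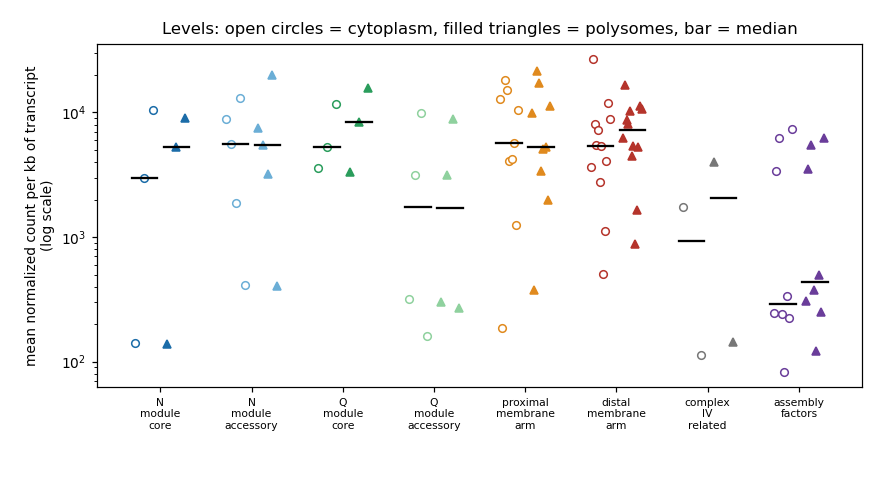
Mean normalized count per kilobase of transcript (log scale) by module, each symbol 1 gene, with open circles for cytoplasm, filled triangles for polysomes and black bars for medians. The assembly factors lie mostly below 1000, with a cytoplasmic median of 291, and subunit modules other than the Q module accessory group and the complex IV related pair have cytoplasmic medians between 2983 and 5712.

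Averaged over GC7 and vehicle, members differed in their level in heavy polysomes relative to that in the cytoplasm. The ratio of the polysomal to the cytoplasmic mean count, on a log2 scale and relative to the median of all genes, had a median of -0.25 over the 46 members. It ranged from -1.19 for NDUFB1 to 0.69 for NDUFA4. The proximal-arm subunit NDUFA10 was on the loaded side at 0.51. The matrix arm had a median of -0.52 and the distal membrane arm -0.06. These ratios compare fractions that were normalized separately, have no error, and describe an order only. They do not give the share of an mRNA that is on ribosomes, since mRNA with few ribosomes lies outside the heavy fractions.

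In whole-cell RNA a single member, NDUFA4L2, passed the unadjusted threshold. The sign of the whole-cell table was reversed, since neither table states its numerator and its values run against both fractions (Pearson r = -0.40 with cytoplasm and -0.46 with polysomes over 14118 genes, as deposited, and the same to 2 decimals without the members). With that reading, 1 of 46 members passed an unadjusted p under 0.05 and was higher, and 0 were lower. The background was 1.66% higher and 1.33% lower of all genes of the table, and 2.08% higher and 1.13% lower of those also in the fraction table, so the members' count was near the background. The value of NDUFA4L2, the hypoxia-induced paralog of NDUFA4, was a log2 fold change of 2.79 (unadjusted p = 0.00511, as given in the authors' deposited table). No gene of the table, members included, passed Benjamini-Hochberg adjustment, and the smallest adjusted p over all genes was 0.642. The median over the members was -0.04, the same to 2 decimals as that of the 14118 genes also in the fraction table. In bulk RNA of this kind, fewer cells and less RNA per cell cannot be told apart.

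The lowest subunit in whole cells was NDUFV2, an iron-sulfur subunit of the N module, at -0.91 (unadjusted p = 0.257, as given in the authors' deposited table). After NDUFA4L2, the highest was NDUFA3 at 0.91 (p = 0.478, as given in the authors' deposited table), a value that is uncertain because the table holds 9 further numbered rows of that symbol, which run from -0.62 to 1.38. NDUFA6 has 4 such rows, and NDUFA10, NDUFS1 and NDUFS3 have 1 each. Assembly factors ran from -0.64 for NDUFAF4 to 0.42 for NDUFAF3, with NDUFAF6 at -0.34, NDUFAF5 at -0.21, NDUFAF7 at -0.14, NDUFAF8 at -0.05, NDUFAF1 at 0.20 and NDUFAF2 at 0.28, all with unadjusted p of 0.357 or more in the authors' deposited table. The distal membrane arm lay below 0 in 10 of 12 subunits with a median of -0.21, and none of its subunits passed the unadjusted threshold.

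In cytoplasmic RNA no member passed the authors' deposited adjusted p. None of 46 was called higher or lower, against 2.29% of all 15747 genes called higher and 1.95% called lower. By the unadjusted p in the authors' deposited table, 1 member was higher and 4 were lower at a threshold of 0.05, beside 7.31% and 8.13% of all genes, so both counts were near or below the background. NDUFB5, a distal-arm subunit, was the higher one, at 0.34 (SE 0.15, adjusted p 0.0782, as given in the authors' deposited table). The 4 lower ones were NDUFB4, NDUFB1, NDUFA2 and NDUFA5, and the lowest of them was NDUFB4 at -0.47 (SE 0.35, adjusted p 0.157, as given in the authors' deposited table).

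Although single members did not pass, 37 of 46 lay below 0 in the cytoplasm, compared with 8075 of 15747 among all genes. The fraction table gives fold changes shrunken towards 0, and the median of the members was -0.09 as deposited and -0.25 once the shrinkage was undone, against -0.00 and -0.01 for all genes. This was not particular to complex I. Among 42 nuclear genes of complexes II to V, 30 lay below 0, with medians of -0.08 deposited and -0.31 unshrunken. Among 78 mitochondrial ribosomal proteins 49 did, with medians of -0.05 and -0.11. Among assembly factors the deposited value was highest for NDUFAF1 at 0.11 and lowest for NDUFAF7 at -0.15, with NDUFAF6 at -0.11, NDUFAF8 at -0.07, NDUFAF4 at -0.07, NDUFAF3 at -0.06, NDUFAF5 at -0.05 and NDUFAF2 at 0.04. Unshrunken, the median of the factors was -0.15, and the lowest was NDUFAF3 at -0.35 with a 95% interval from -1.22 to 0.52. The adjusted p of these 8 factors was 0.540 or more in the authors' deposited table, and 0 of 8 passed even an unadjusted p under 0.05. Members had a median unshrunken SE of 0.285 in the cytoplasm and 0.162 in polysomes, and 42 of 46 had the smaller SE in polysomes, as did 85.2% of all genes, so the cytoplasmic comparison was the less precise.

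In heavy polysomes 7 members fell and 1 rose. The 7 were NDUFB3, NDUFS5, NDUFB4, NDUFA2, NDUFA8, NDUFC2 and NDUFB6, all accessory subunits, and the member that rose was NDUFA4L2. Among all genes 5.48% were called lower and 5.61% higher by the authors' deposited adjusted p, so 7 of 46 lower is a larger share than the background and 1 of 46 higher is a smaller one. At an unadjusted p under 0.05, 14 members were lower and 3 higher, beside 12.1% and 11.2% of all genes by the same deposited p. In all, 36 of 46 lay below 0, with a deposited median of -0.15 and an unshrunken one of -0.23, against -0.00 and -0.01 for all genes. None of the 46 reached the size of change that the authors' category asks for, a log2 fold change over 1.

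**Figure D2:**
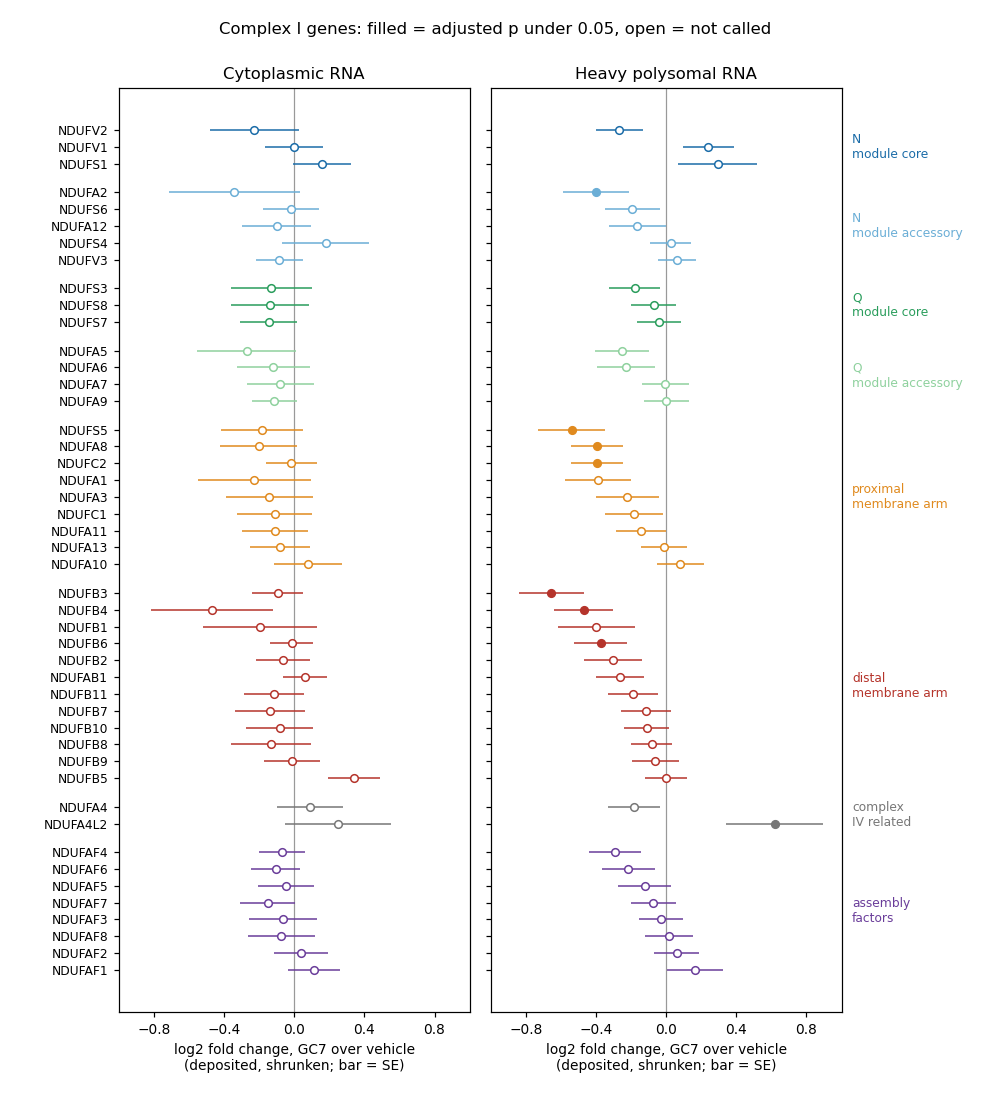
Deposited (shrunken) log2 fold change of GC7 over vehicle for each of the 46 genes, grouped by module, in cytoplasm (left) and heavy polysomes (right), with bars for the SE and filled symbols for an adjusted p under 0.05. In polysomes the filled symbols on the left of 0 sit in both membrane-arm groups and at NDUFA2, and in cytoplasm none is filled.

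Within the enzyme, the falls lay mostly in the membrane arm. Of its 21 nuclear subunits 6 fell and 20 were below 0, with a median of -0.22. Of 15 subunits of the matrix arm 1 fell, none rose and 10 were below 0, with a median of -0.07. Whether the arms differ was not tested, because genes are not replicates. By role, 7 of 30 accessory subunits fell (median -0.19), and of 6 nuclear core subunits none was called (median -0.06). These groups also differ in coding length, which is taken up below. Its median was 402 bases in accessory and 772.5 in core subunits, the shortest of which has 633. It was 414 bases in the membrane arm and 633 in the matrix arm. Whether arm or role matters apart from length was not tested.

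In the distal membrane arm all 12 subunits lay below 0 in polysomes, from -0.65 to -0.00, and 3 were called. NDUFB3, a small single-span subunit whose loss causes complex I deficiency, had the largest fall of all members: a polysomal log2 fold change of -0.65 (SE 0.19, adjusted p = 0.00133, as given in the authors' deposited table). Undoing the shrinkage gave -0.73 with a 95% interval from -1.08 to -0.38. Its cytoplasmic value was -0.09 (SE 0.15, adjusted p = 0.720, as given in the authors' deposited table), so the polysomal value was not matched by a call in the cytoplasm. The gene lies at chr2:201071433-201085750 on the plus strand of GRCh38, and its whole coding sequence, read from the exons of the GENCODE v44 canonical transcript, is printed because it shows how short these messages are (297 bases including the stop codon) and that it has no run of proline codons; capitals mark the start and stop codons.
NDUFB3 coding sequence: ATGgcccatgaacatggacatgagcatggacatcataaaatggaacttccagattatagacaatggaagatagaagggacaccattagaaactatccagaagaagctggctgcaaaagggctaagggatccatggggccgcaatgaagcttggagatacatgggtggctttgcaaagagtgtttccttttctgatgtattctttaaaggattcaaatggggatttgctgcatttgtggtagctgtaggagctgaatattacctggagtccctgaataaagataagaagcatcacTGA

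NDUFB4 and NDUFB6 were the other called subunits of the distal arm. NDUFB4, a single-span accessory subunit at chr3:120596328-120602507, had -0.47 in polysomes (SE 0.17, adjusted p = 0.0114, as given in the authors' deposited table), and its uncalled cytoplasmic value was also -0.47; unshrunken, the values were -0.55 in polysomes and -0.74 in the cytoplasm. It has 12 annotated pseudogenes, so its reads may be shared with near-identical copies and its value is uncertain to that extent. NDUFB6, at chr9:32553001-32573184, had -0.37 in polysomes (SE 0.15, adjusted p = 0.0309, as given in the authors' deposited table) and -0.02 in the cytoplasm. No pseudogene of NDUFB6 is annotated by name. NDUFB1 at -0.40 (SE 0.22) just missed the threshold with an adjusted p of 0.0721 in the authors' deposited table. The remaining members of the arm were NDUFB2 at -0.30, NDUFAB1 at -0.26, NDUFB11 at -0.19, NDUFB10 and NDUFB7 at -0.11, NDUFB8 at -0.08, NDUFB9 at -0.06 and NDUFB5 at 0.00 to 2 decimals. NDUFAB1 is the mitochondrial acyl carrier protein, which also serves fatty acid and iron-sulfur cluster synthesis.

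In the proximal membrane arm 3 of 9 subunits fell. NDUFS5, a cysteine-motif protein of the intermembrane space encoded at chr1:39026318-39034636, had a polysomal log2 fold change of -0.54 (SE 0.19, adjusted p = 0.00945, as given in the authors' deposited table), and it has 6 annotated pseudogenes. NDUFA8, a protein of the same fold at chr9:122144058-122159779, had -0.39 (SE 0.15, adjusted p = 0.0193, as given in the authors' deposited table). NDUFC2, at chr11:78068297-78079862, also had -0.39 (SE 0.15, adjusted p = 0.0201, as given in the authors' deposited table). Its reads could be split with the readthrough transcript NDUFC2-KCTD14, which had a mean count of 47.1 against 4279 for NDUFC2 in polysomes and a value of -0.10. NDUFA1, which is encoded on the X chromosome and is needed for assembly of the membrane arm, lay just outside the threshold at -0.39 (SE 0.19, adjusted p = 0.0535, as given in the authors' deposited table). Values of the other proximal subunits were -0.22 for NDUFA3, -0.18 for NDUFC1, -0.14 for NDUFA11, -0.01 for NDUFA13 (also called GRIM-19) and 0.08 for NDUFA10, and none was called.

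The matrix arm held a single call. Its core subunits were not called: NDUFS1, which carries several iron-sulfur clusters, was at 0.29, NDUFV1, which binds NADH and FMN, at 0.24, NDUFS7 at -0.04, NDUFS8 at -0.07, NDUFS3 at -0.18 and NDUFV2 at -0.27. At an unadjusted p under 0.05, NDUFS1 and NDUFV1 were higher and NDUFV2 lower, and none of the 3 passed adjustment. The call was that of NDUFA2, an accessory subunit of the N module with a thioredoxin-like fold at chr5:140638740-140647771, at -0.40 (SE 0.19, adjusted p = 0.0482, as given in the authors' deposited table). Its adjusted p lay just inside the threshold, and its cytoplasmic value was -0.34 (SE 0.38).

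The remaining accessory subunits of the matrix arm were not called in polysomes. In the N module they were NDUFS6, a zinc-binding subunit, at -0.19, NDUFA12 at -0.16, NDUFS4, which is often mutated in Leigh syndrome, at 0.03 and NDUFV3 at 0.06. In the Q module NDUFA5 was at -0.25, NDUFA6 at -0.23, NDUFA7 at -0.00 and NDUFA9 at 0.00. NDUFA5 has 12 annotated pseudogenes.

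Of the complex IV related pair 1 gene was called. NDUFA4L2 rose in polysomes by 0.62 (SE 0.28, adjusted p = 0.0232, as given in the authors' deposited table), the highest value among subunit names, from a low level (mean normalized count 136 in polysomes). Its cytoplasmic value was 0.25 (SE 0.30, adjusted p = 0.340, as given in the authors' deposited table), and its whole-cell value was 2.79 after the sign of that table was reversed. NDUFA4 was at 0.09 in the cytoplasm and -0.18 in polysomes and was not called in either.

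None of the assembly factors passed the test in polysomes. NDUFAF4, which acts with NDUFAF3 in early assembly of the Q module, was the lowest at -0.29 (SE 0.15, adjusted p = 0.0902, as given in the authors' deposited table) and the only one of the 8 with an unadjusted p under 0.05. NDUFAF1, part of the complex that assembles the membrane arm, was the highest at 0.16 (SE 0.16, adjusted p = 0.423, as given in the authors' deposited table). Between them lay NDUFAF6 at -0.21, NDUFAF5, which hydroxylates NDUFS7, at -0.12, NDUFAF7, a protein arginine methyltransferase, at -0.07, NDUFAF3 at -0.03, NDUFAF8 at 0.01 and NDUFAF2, a paralog of NDUFA12, at 0.06. The median of the factors was -0.05, with 5 of 8 below 0, and that of the subunits -0.18, with 31 of 38 below 0. The subunit median lay below the factor median by a difference of -0.13 in polysomes and -0.04 in the cytoplasm, and above it by 0.06 in whole cells. That last sign turned to -0.05 when 12 other assembly factors were added to the 8. With 8 factors, and no errors per library, these differences are a description and were not tested.

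The 12 other assembly factors, chosen for their function and not their name, held 1 call in the cytoplasm and 2 in polysomes. Of all genes 2.29% were called higher and 1.95% lower in the cytoplasm, and 5.61% and 5.48% in polysomes. Counts this small cannot be set apart from those shares. AIFM1, the apoptosis-inducing factor that supports import of complex I subunits, rose by 0.64 in the cytoplasm (SE 0.29, adjusted p = 0.0444) and by 0.65 in polysomes (SE 0.20, adjusted p = 0.00216), as given in the authors' deposited table. DMAC2, a distal-arm assembly factor, had -0.43 in polysomes (SE 0.13, adjusted p = 0.00488, as given in the authors' deposited table). ACAD9, ECSIT, TMEM126B, TIMMDC1, COA1, TMEM186, FOXRED1, NUBPL, TMEM70 and DMAC1 were called in neither fraction. Of 8 measured regulators of respiratory genes (NRF1, GABPA, GABPB1, ESRRA, YY1, PPARGC1B, PPRC1 and TFAM) none was called in either fraction, and at an unadjusted p under 0.05 only GABPB1 was higher, in the cytoplasm, at 0.42 (adjusted p = 0.127, as given in the authors' deposited table).

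Beside these values, the partner subunits encoded in mitochondrial DNA were far lower with GC7. All 7 MT-ND mRNAs were lower in whole cells at an unadjusted p under 0.05, with a median of -2.32, and 6 of 7 were called lower in each fraction, with medians of -3.42 and -3.27. The exception in both fractions was MT-ND6, the only one read from the other strand, at -0.50 in the cytoplasm and -0.09 in polysomes (adjusted p 0.0868 and 0.664 in the authors' deposited table). MT-ND4 for example had -3.75 in the cytoplasm (SE 0.46, adjusted p = 1.47e-14, as given in the authors' deposited table). Mitochondria were pelleted before both fractions were taken, and these mRNAs still made up 4.43% of the summed counts in the cytoplasm and 0.136% in polysomes. Nuclear subunit names ranged from -0.47 to 0.34 in the cytoplasm and from -0.65 to 0.62 in polysomes.

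**Figure D3:**
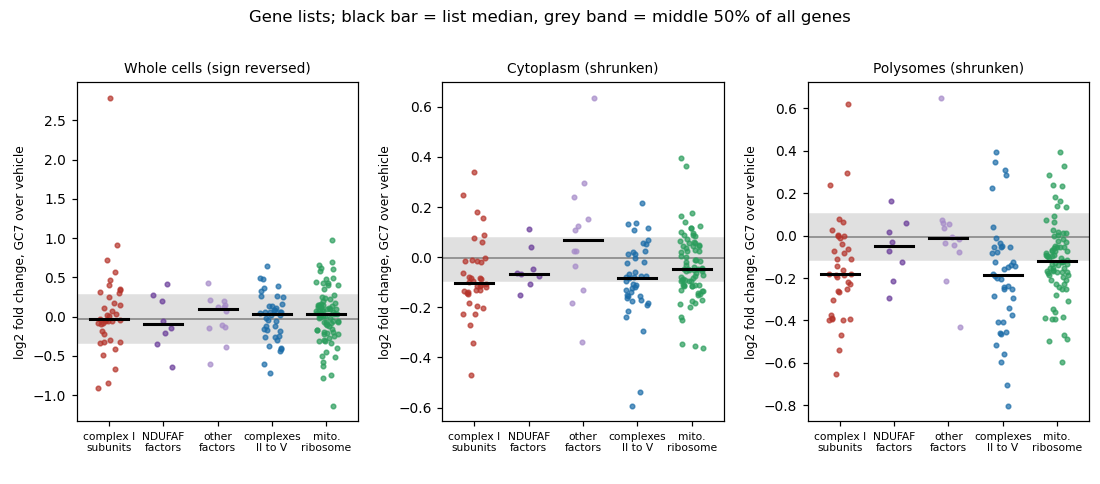
Log2 fold change of GC7 over vehicle for complex I subunits, NDUFAF factors, other assembly factors, complexes II to V and mitochondrial ribosomal proteins in whole cells, cytoplasm and polysomes, 1 point a gene, with black bars for list medians and a grey band for the middle 50% of all genes. For whole cells the band covers the genes also in the fraction table. In polysomes the medians of the subunits (-0.18), of complexes II to V (-0.19) and of the mitochondrial ribosome (-0.12) all lie below the grey band, and those of both factor lists lie within it.

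Nuclear subunits of the other respiratory complexes gave values close to those of complex I. Among 42 genes of complexes II to V, 10 were lower and 1 higher in polysomes, with a median of -0.19, and none was called in the cytoplasm. Among 78 mitochondrial ribosomal proteins the same counts were 10 and 1, with a median of -0.12. Of all genes 5.48% were called lower and 5.61% higher in polysomes, so in both lists lower calls were a larger share than the background. In the cytoplasm 1.95% of all genes were called lower and 2.29% higher. At an unadjusted p under 0.05 in the cytoplasm, 0 genes of complexes II to V were higher and 4 lower, and 2 mitochondrial ribosomal proteins were higher and 4 lower, by the authors' deposited p, beside 7.31% of all genes higher and 8.13% lower.

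**Figure D4:**
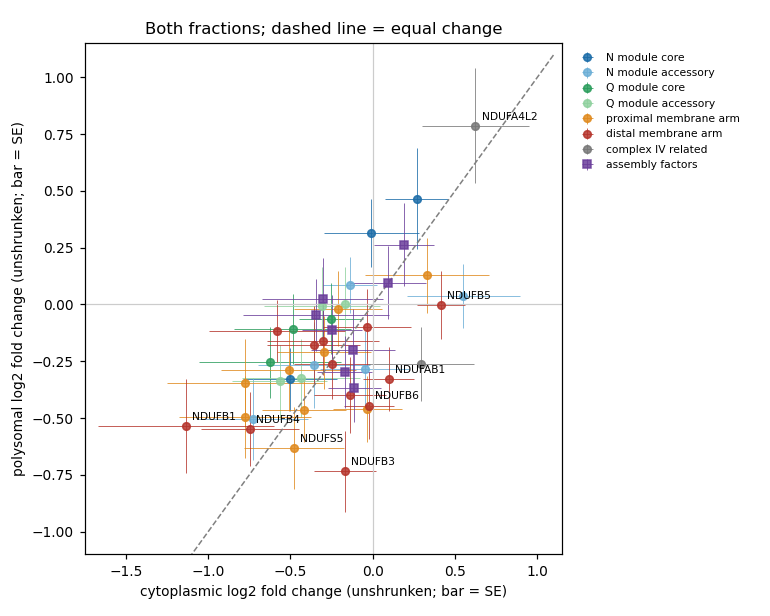
Unshrunken log2 fold change of the 46 genes in cytoplasm (x axis) and polysomes (y axis) with SE bars, coloured by module, and a dashed line of equal change. NDUFB3, NDUFB6, NDUFAB1 and NDUFB5 lie below the line, and the horizontal bars are mostly longer than the vertical ones.

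Translational efficiency, the polysomal minus the cytoplasmic unshrunken log2 fold change, did not separate any member from 0 after adjustment. With a normal test on both SE and Benjamini-Hochberg adjustment, 0 of 46 members and 0% of 15742 genes were called, with no adjusted p below 0.9997. By the unadjusted p, 4 of 46 members and 2.14% of all genes passed 0.05. All 4 were lower and all 4 belong to the distal membrane arm. That arm did not fall as a whole, with a median of -0.04 and 5 of 12 subunits above 0. Its NDUFB1, at 0.60 (SE 0.57), had the highest value of all members. NDUFB3 was at -0.57 (SE 0.26) with a 95% interval from -1.07 to -0.06. NDUFAB1 was at -0.43, NDUFB6 at -0.42 and NDUFB5 at -0.41, each with an SE of 0.21 and an interval that ended just below 0. NDUFB5 had the pattern of a higher cytoplasmic value without a polysomal one, and NDUFB3 and NDUFB6 that of a lower polysomal value without a cytoplasmic one. For these 4 genes the SE in the cytoplasm and in polysomes were of similar size, as the plot of both fractions shows. The median over the members was 0.14, and it was -0.05 when the deposited values were subtracted in place of the unshrunken ones, so its sign depends on the shrinkage and is not a result. Assembly factors ran from -0.26 for NDUFAF4 to 0.33 for NDUFAF8, with NDUFAF6 at -0.13, NDUFAF5 at -0.08, NDUFAF2 at 0.00, NDUFAF1 at 0.07, NDUFAF7 at 0.14 and NDUFAF3 at 0.30.

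A feature that the choice of genes did not use was length. Coding sequences of subunits had a median of 430.5 bases and those of assembly factors 769.5, and for all protein-coding genes measured the median was 1401. All 7 subunits that fell in polysomes have coding sequences under 600 bases, from 297 for NDUFB3 to 519 for NDUFA8. Neither coding length nor the split at 600 bases was among the planned comparisons. The split falls in a gap of the subunits' lengths, between 570 and 633 bases. Over the 38 subunits the unshrunken polysomal change ran with coding length (Pearson r = 0.58, Spearman rho = 0.63), as a description over genes that share the same libraries, and over the 8 factors it did not (r = -0.13, rho = -0.33). NDUFA4L2, with 264 coding bases, went against the order.

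Short genes in general were lower in polysomes. Under 600 coding bases, 16.1% of 1627 protein-coding genes were called lower and 3.50% higher, and of 29 subunits 7 were lower (24.1%) and 1 higher. At 600 bases or more, 4.47% of 11274 genes were called lower, and of 9 subunits 0 were called in either direction; by an unadjusted p NDUFV2 was lower and NDUFV1 and NDUFS1 were higher. The unshrunken polysomal median was -0.19 for all short genes and -0.29 for short subunits, and 0.00 for long genes and for long subunits. In the cytoplasm the share called lower was 2.03% of short genes and 2.15% of long ones. The unshrunken cytoplasmic median was -0.08 for short genes and -0.01 for long ones, and -0.30 for short subunits and -0.17 for long ones. Across all 12901 protein-coding genes the relation of polysomal change to coding length was weak (r = 0.05, rho = 0.16).

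**Figure D5:**
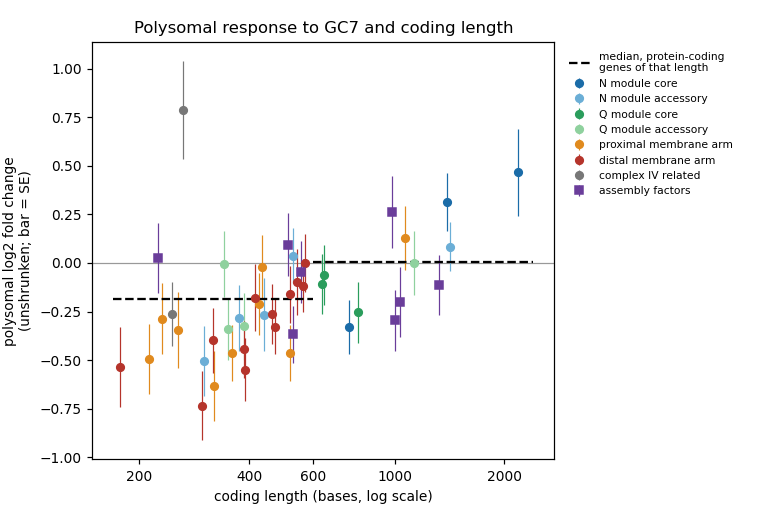
Unshrunken polysomal log2 fold change with SE bars against coding length (log scale) for the 46 genes, coloured by module, with squares for assembly factors and dashed lines for the median of all protein-coding genes under and from 600 bases (-0.19 and 0.00). Most subunits under 600 bases lie below 0, and NDUFV1 and NDUFS1 at the long end lie above it.

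Runs of 3 or more proline codons, stretches at which eIF5A is known to act, occur in 6 of 46 members (13.0%) and in 26.2% of all protein-coding genes, which have longer coding sequences. Under 600 coding bases they occur in 6 of 33 members (18.2%) and in 8.36% of protein-coding genes, and at 600 bases or more in 0 of 13 members and 28.8% of genes, so the order of the shares turns with length. Among the 8 called members 2 have one, NDUFC2 and NDUFS5, and both fell. NDUFB3, NDUFB4, NDUFA2, NDUFA8 and NDUFB6 fell and have none, and NDUFA13, NDUFA7, NDUFAF2 and NDUFAF3 have one and were not called. The windows of these 2 genes, taken from their GENCODE v44 coding sequences, are given to show where these codons lie, with the proline codons in capitals and codons counted from 1 at the start codon. The NDUFC2 run is codons 21 to 23 and that of NDUFS5 codons 94 to 96.
NDUFC2 run: cggagcctgCCCCCGCCCaagctgacc
NDUFS5 run: aagtacaccCCTCCACCTcaccacatt

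Promoters of 39 of the 46 members, from 250 bases before to 50 bases after the start, were found in the RefSeq table (GRCh38.p14), 32 of subunits and 7 of factors. Entries were missing for NDUFA4, NDUFA4L2, NDUFAF6, NDUFB5, NDUFB9, NDUFC2 and NDUFS5. Letters were searched on both strands, and each share is set beside the share of all 27305 genes with a promoter entry and of those also in the fraction table. The NRF1 motif GCATGCGC is in 8 of 39 (20.5%), against 3.68% of all genes and 6.28% of those in the table. The YY1 motif AAGATGGC is also in 8 of 39, against 3.52% and 6.23%. The ETS motif CCGGAAG, bound by GABPA, is in 17.9%, against 12.2% and 21.8%. The SP1 motif GGGCGG is in 64.1%, against 48.3% and 77.2%. TATAAA is in 7.69%, against 14.0% and 8.45%, and CCAAT in 30.8%, against 39.7% and 42.6%.

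The NRF1 motif is in the promoters of NDUFA5, NDUFA6, NDUFA8, NDUFAF4, NDUFAF5, NDUFB4, NDUFS6 and NDUFS7, and the YY1 motif in those of NDUFA3, NDUFA6, NDUFA7, NDUFA9, NDUFAF8, NDUFB8, NDUFS4 and NDUFS7. Among the 5 lower subunits with an entry, NDUFB4 and NDUFA8 hold the NRF1 motif and none holds the ETS or YY1 letters. The SP1 letters are in 3 of the 5 (NDUFB3, NDUFA2 and NDUFA8), against 77.2% of genes in the table. The element TGATGNAA, bound by ATF4 with CEBP partners, is in NDUFA5 and NDUFS6 only, 5.13% of the promoters against 4.46% of all genes and 2.76% of those in the table. The promoters of 3 subunits that fell together in polysomes are printed to show that no searched motif is common to all of them: NDUFB3 (chr2:201071751-201072050, plus strand) holds 2 SP1 matches, NDUFB4 (chr3:120596086-120596385, plus strand) 2 overlapping NRF1 matches, and NDUFA2 (chr5:140647581-140647880, minus strand) 1 SP1 match. Capitals mark matches to the NRF1, ETS, YY1 and SP1 letters on either strand.
NDUFB3 promoter: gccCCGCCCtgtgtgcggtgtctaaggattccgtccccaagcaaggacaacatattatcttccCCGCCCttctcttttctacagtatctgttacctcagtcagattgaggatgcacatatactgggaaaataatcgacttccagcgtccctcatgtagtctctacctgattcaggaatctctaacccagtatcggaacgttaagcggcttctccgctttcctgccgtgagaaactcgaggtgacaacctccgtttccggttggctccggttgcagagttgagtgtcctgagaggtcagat
NDUFB4 promoter: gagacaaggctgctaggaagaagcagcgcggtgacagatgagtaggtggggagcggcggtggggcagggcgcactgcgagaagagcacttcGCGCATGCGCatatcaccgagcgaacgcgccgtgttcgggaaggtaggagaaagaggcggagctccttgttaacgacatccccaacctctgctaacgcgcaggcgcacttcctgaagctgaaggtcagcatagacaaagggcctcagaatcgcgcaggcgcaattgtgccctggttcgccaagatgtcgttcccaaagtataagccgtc
NDUFA2 promoter: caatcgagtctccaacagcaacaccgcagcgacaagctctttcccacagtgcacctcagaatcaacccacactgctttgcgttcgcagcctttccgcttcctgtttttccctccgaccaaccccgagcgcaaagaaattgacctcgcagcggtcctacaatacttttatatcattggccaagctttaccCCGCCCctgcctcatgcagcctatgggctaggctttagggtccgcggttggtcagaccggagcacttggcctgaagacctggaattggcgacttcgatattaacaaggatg

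Many members start close to another gene. A gene on the opposite strand begins within 1000 bases upstream of the start of 22 of 46 members (47.8%), against 26.2% of protein-coding genes of the table. Examples are NDUFA2 with IK, NDUFA8 with MORN5 and NDUFB3 with HYCC2. The share was 38.1% in complexes II to V and 38.5% in mitochondrial ribosomal proteins, also above that of protein-coding genes. The stretch before the start codon had a median of 43 bases in members, with a range from 11 to 434, and 139 in all protein-coding genes. It was also short in complexes II to V (median 59) and in mitochondrial ribosomal proteins (30.5). The 4 transcripts beside or across members were low, with mean counts in polysomes of 32.1 for NDUFB2-AS1, 47.1 for NDUFC2-KCTD14, 69.3 for NDUFA6-DT and 93.9 for NDUFV2-AS1. None was called in the authors' deposited table, and their polysomal values were 0.03, -0.10, -0.10 and 0.04 in that order. Whether counting used strand is not given in the sources used here, so reads of the antisense names and of NDUFB2 and NDUFV2 may not be told apart.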

How the data were processed

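RNA of 6 groups of 3 libraries was compared. STAR 2.7.8a, Salmon 1.4.0 and GRCh38 are named in the submitters' processing notes, with no role for each. All values are the authors' comparisons. The whole-cell table holds, per the file headers, log2 fold changes (base read from the values) and unadjusted p-values deposited by the authors, and the fraction table deposited mean normalized counts, log2 fold changes, p-values and adjusted p-values. The authors' SE, deposited per gene, is a score in log2 units. Commas in 1373 names were repaired.

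Genes of the category "UP" were taken to be higher with GC7 and the whole-cell sign reversed, so every direction rests on that reading. Fold changes were unshrunken by fitting a Cauchy prior to the deposited p-values, which brought z to within 0.1 of the value implied by the p-value for 99.7% of genes in cytoplasm and 99.8% in polysomes. A gene was called at an adjusted p under 0.05, or an unadjusted one in whole cells. Translational efficiency left out 5 genes whose z was off by over 0.5. Planned tests on counts could not be run on comparison tables. Lengths and neighbours come from GENCODE 44 canonical transcripts and promoters from RefSeq. Python 3.11.15, pandas 2.3.3 and scipy 1.17.1 were used, and the calculations were tested on simulated data.

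Full statistics were given for called members, for the extremes among subunits and among factors, and for others at the edge of a threshold, which were chosen after their values were seen, as were the mean counts of the neighbouring transcripts. The members, modules and other lists were chosen with earlier results of these data known. Alternatives were other call rules, scales and member sets. One gene of the rule is not reported here and enters no count of members.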

Additional observations from a re-analysis of the deposited data

How the results depend on the processing

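The 1 member higher in whole cells became 0 with Benjamini-Hochberg adjustment over all genes or over those also in the fraction table. The 0 members higher in the cytoplasm became 1 at an adjusted p under 0.1. In polysomes the 7 lower and 1 higher members became 0 and 0 with the authors' category (log2 fold change over 1), and 2 and 0 at an adjusted p under 0.01, where NDUFB3 and NDUFS5 remained. Of the 8 calls of members in the fractions, 8 were kept when the adjusted p was recomputed over all genes. Members called in translational efficiency stayed at 0 under 4 alternatives, while the count over all genes moved from 0 to 25 with errors correlated at 0.5. The polysomal median stayed negative, from -0.23 unshrunken to -0.15 as deposited. No paired analysis was possible because the tables hold no values of single libraries, and leaving out each replicate in turn was not run for the same reason. Depth is unknown, so no limit of detection can be given.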
